A study of Mus musculus with 8 samples.

Results

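The enzymes of heme synthesis were followed in mouse liver after knockdown of Eif4ebp3. They are 8 genes, Alas1, Alas2, Alad, Uros, Urod, Cpox, Ppox and Fech, taken by gene symbol from a table of 55536 genes, and all 8 had enough reads to be tested. The knockdown group (n = 4) was 2-month-old C57BL/6 mice, lean and wild type, that received 0.1 OD of an adenovirus with a short hairpin RNA against Eif4ebp3, a repressor of cap-dependent translation initiation. The control group (n = 4) was of the same strain and age and received the same amount of adenovirus with a hairpin against lacZ, a bacterial gene. In both groups the liver was taken 1 week after injection, in mice that had been fasted overnight, so that virus and fasting are common to all samples. The labels name no promoter for the hairpins and do not say which liver cells were infected. They also do not state whether the replicates are separate mice, so n counts samples. Ribosomal RNA was removed and the rest sequenced, with 24371461 to 32389444 estimated counts per sample.

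Heme is iron held in a porphyrin ring. Its synthesis starts in mitochondria, where an aminolevulinate synthase joins glycine to succinyl-CoA, continues in the cytosol, where a ring is built and trimmed, and ends in mitochondria, where the ring is oxidised and iron is inserted. In liver most heme goes to cytochrome P450 enzymes, the housekeeping synthase ALAS1 sets the rate and is repressed by heme, and the synthase ALAS2 is best known from developing red cells.

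Of the 8 enzymes, 6 had lower transcript levels in the knockdown livers, 0 had higher levels and 2 did not pass the test. Alas2 fell 5.80-fold, and Cpox, Alas1, Urod, Uros and Fech fell by 0.35 to 0.73 on the log2 scale. Alad and Ppox differed by 0.10 and 0.07 on the log2 scale and did not pass. A call here is an adjusted p under 0.05 from edgeR's quasi-likelihood test over 15375 genes. By that rule 57.2% of all genes were called, 27.8% lower in knockdown and 29.5% higher, and 75% of these enzymes were lower. The median log2 fold change was -0.51 over the 8 enzymes and -0.003 over all genes tested. In tissue RNA, fewer cells of a type and less RNA per cell cannot be told apart.

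All levels are CPM, that is counts normalised to library size, here with TMM factors, which set the typical gene to no change. Scaled by total counts alone, the median of all genes shifted by 0.57 on the log2 scale. Changes are therefore relative to the median gene, and under total-count scaling 3 enzymes (Alad, Ppox and Fech) were called higher and 1 (Alas2) lower, where 71.6% of all genes were called, 63.9% higher and 7.73% lower.

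The targeted gene was checked first. Eif4ebp3 held 9.62, 13.9, 37.2 and 19.5 CPM in knockdown replicates 1 to 4, against 289, 215, 204 and 49.3 CPM in control replicates 1 to 4. Every knockdown sample lay below every control, and control replicate 4 stood apart from the other controls.

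The upstream sequences of Alas2 and Cpox, which had the largest decreases, are shown because GATA factors are known to act on heme synthesis genes in red cell precursors and both hold a match to a GATA motif, as does Uros. They are RefSeq sequence on GRCm38.p6 from 250 bases before the start site, written 5′ to 3′ on the strand of the gene and ended where the annotated gene begins or at the start site. Capitals mark matches on either strand. The motif of GATA factors was searched as AGATAA and, separately, with its leading base changed, as TGATAA. The TATA box was searched as TATAAA. The motifs were chosen after these sequences had been read, together with CCACCC (KLF factors) and GCGCA, any base and GCGC (NRF1).
Alas2, chrX:150547167-150547374, plus strand: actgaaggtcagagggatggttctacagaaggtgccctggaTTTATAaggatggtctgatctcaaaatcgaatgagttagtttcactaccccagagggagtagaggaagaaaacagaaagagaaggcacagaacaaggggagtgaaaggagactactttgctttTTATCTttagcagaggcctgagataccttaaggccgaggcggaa
Cpox, chr16:58669958-58670207, plus strand: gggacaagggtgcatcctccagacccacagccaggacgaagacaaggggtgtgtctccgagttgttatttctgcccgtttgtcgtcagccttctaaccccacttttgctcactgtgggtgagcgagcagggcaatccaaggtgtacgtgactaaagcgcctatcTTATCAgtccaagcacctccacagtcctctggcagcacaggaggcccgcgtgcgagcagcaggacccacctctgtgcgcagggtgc

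The Alas2 sequence held 1 AGATAA match, beginning 86 bases before the start, and 1 TATAAA match, beginning 209 bases before it. Nearer to the start, beyond the printed end, lay 3 overlapping CCACCC matches. The Cpox sequence held 1 TGATAA match, also 86 bases before the start. Uros has 2 start sites in RefSeq, of which 1 has a TGATAA match 68 bases upstream and the other an NRF1 match 47 bases upstream. No match to any of these motifs was found in the windows of Alad, Urod and Ppox. In RefSeq Alas1 has 2 start sites, of which 1 has 2 NRF1 matches upstream and the other 1 CCACCC match. Among 32851 windows of 250 bases before a start, 9.99% held AGATAA, 7.94% TGATAA, 28.1% CCACCC, 12.4% TATAAA and 3.74% the NRF1 motif. Windows were matched for 7 of the 8 enzymes, and the counts per gene do not tell transcripts from different starts apart.

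Alas1 (ENSMUSG00000032786, chromosome 9, 106233455 to 106248654 on mm10) encodes the housekeeping aminolevulinate synthase. It held 235, 305, 259 and 317 CPM in knockdown replicates 1 to 4, against 626, 329, 351 and 343 CPM in control replicates 1 to 4. The groups did not overlap, but control replicate 1 was far above the other controls, and the nearest knockdown and control samples lay close together. Alas1 fell by 0.56 ± 0.20 (log2, SE; 95% interval -1.004 to -0.12), with an adjusted p of 0.0315 from edgeR. Without control replicate 1 the log2 fold change was -0.29 with an adjusted p of 0.0546 from edgeR. The call was also lost without knockdown replicate 1 (-0.49, adjusted p = 0.0890, edgeR) and without knockdown replicate 3 (-0.53, adjusted p = 0.0739, edgeR). The spread among controls was wider for Alas1 than for any of the other 7 enzymes, with a coefficient of variation of 34.7% against 3.36 to 11.9%.

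Alas2 (ENSMUSG00000025270, chromosome X, 150547375 to 150570638) encodes the synthase isoform of red cell precursors. It held 14.6, 15.5, 18.4 and 13.1 CPM in the knockdown samples, from 462 to 536 counts each, against 76.3, 89.6, 88.3 and 102 CPM in the controls, from 1591 to 2240 counts each. The highest knockdown sample was far below the lowest control. Alas2 fell by 2.54 ± 0.12 (log2, SE; 95% interval -2.81 to -2.27; adjusted p = 2.47e-07, edgeR), and 0.852% of all genes tested had a lower fold change. The call held without each sample in turn, and under total-count scaling the log2 fold change was -1.98 (adjusted p = 1.22e-06, edgeR). In the authors' deposited table Alas2 stands at -2.51 (log2) and is the only one of the 8 enzymes with a mark of significance, which that table gives to no gene that changed by less than 1 on the log2 scale.

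The antisense gene Apex2, an endonuclease gene, shares 311 exon bases with Alas2, which is 12.9% of the Alas2 exon length, and reads cannot be divided between them if they were counted without strand. Apex2 held 9.58, 12.9, 15.9 and 9.33 CPM in the knockdown samples, against 30.6, 30.0, 25.4 and 9.22 CPM in the controls, with overlapping groups. Apex2 was itself called lower, with a log2 fold change of -0.997 ± 0.32 (SE; adjusted p = 0.0200, edgeR), a call kept in 4 of the 8 fits that left out 1 sample. The part of shared reads in the fall of Alas2 was not tested.

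**Figure D1:**
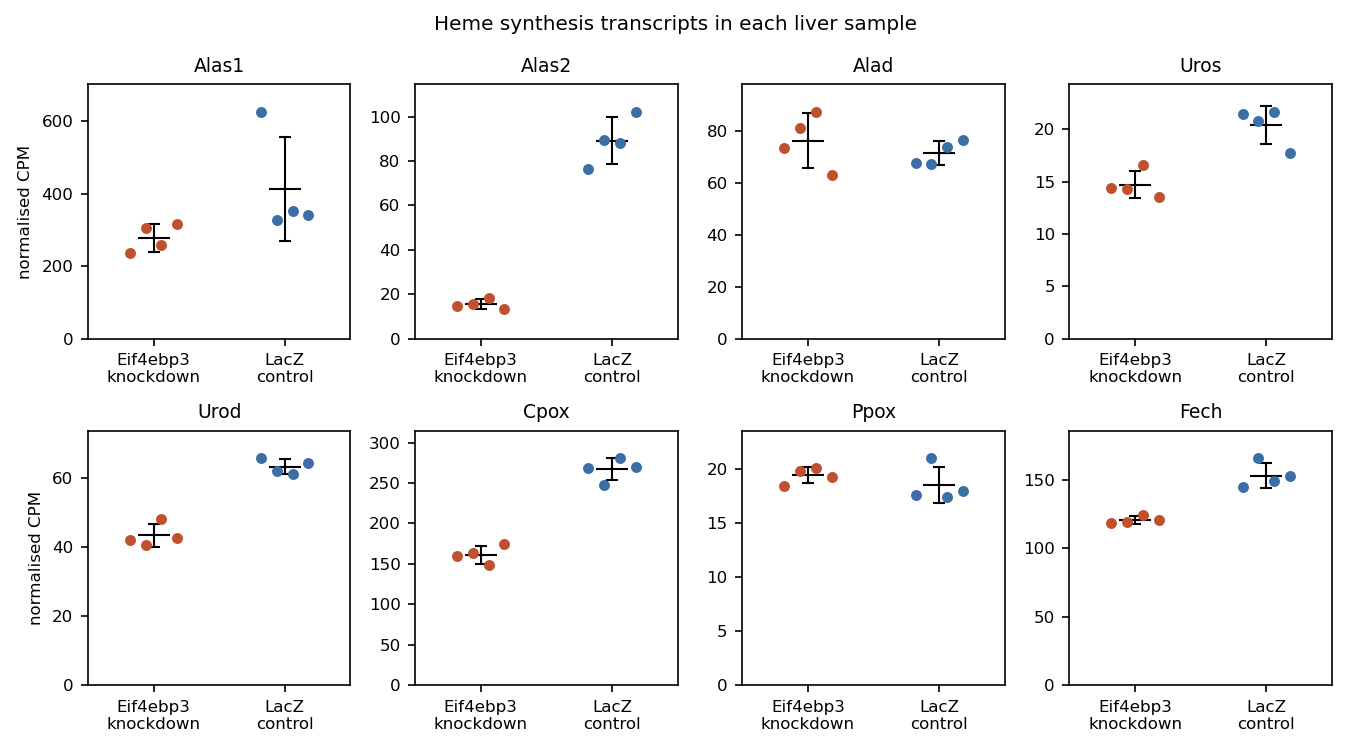
Normalised CPM of the 8 enzymes in each liver sample, with knockdown in red on the left and control in blue on the right of each panel (points: samples in replicate order from left to right; bars: mean ± SD, n = 4 each). The Alas2 samples sit between 13.1 and 18.4 CPM in knockdown and between 76.3 and 102 CPM in controls, and control replicate 1 stands alone for Alas1 at 626 CPM.

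Alad (ENSMUSG00000028393, chromosome 4, 62509169 to 62519918) encodes the cytosolic enzyme that makes porphobilinogen from aminolevulinate. It held 73.6, 81.2, 87.5 and 63.1 CPM in knockdown samples, against 67.8, 67.4, 73.8 and 76.7 CPM in controls. The groups overlapped, with the highest and the lowest sample both in the knockdown group. The log2 fold change was 0.10 ± 0.10 (SE; 95% interval -0.13 to 0.32; adjusted p = 0.447, edgeR). Under total-count scaling it was 0.66 and was called (adjusted p = 0.000342, edgeR).

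Uros (ENSMUSG00000030979, chromosome 7, 133686243 to 133710072) encodes uroporphyrinogen III synthase, which closes the ring. It held 14.4, 14.3, 16.6 and 13.6 CPM in knockdown samples, against 21.5, 20.8, 21.7 and 17.8 CPM in controls. Every knockdown sample was below every control, and control replicate 4 was the nearest to them. Uros fell by 0.48 ± 0.10 (log2, SE; adjusted p = 0.00192, edgeR).

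Urod (ENSMUSG00000028684, chromosome 4, 116989965 to 116994413) encodes the decarboxylase that turns uroporphyrinogen into coproporphyrinogen. It held 42.1, 40.7, 48.2 and 42.7 CPM in knockdown samples, against 65.8, 62.0, 61.1 and 64.4 CPM in controls. The groups were well apart, with a narrow spread in each. Urod fell by 0.54 ± 0.07 (log2, SE; adjusted p = 0.000107, edgeR).

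Cpox (ENSMUSG00000022742, chromosome 16, 58670292 to 58717636) encodes coproporphyrinogen oxidase of the mitochondrial intermembrane space. It held 159, 163, 148 and 175 CPM in knockdown samples, against 268, 248, 281 and 270 CPM in controls. This was the largest decrease after that of Alas2, and the groups did not come near each other. Cpox fell by 0.73 ± 0.08 (log2, SE; adjusted p = 1.98e-05, edgeR).

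Ppox (ENSMUSG00000062729, chromosome 1, 171275990 to 171281186) encodes the inner-membrane oxidase that makes protoporphyrin. It held 18.4, 19.8, 20.1 and 19.3 CPM in knockdown samples, against 17.6, 20.97, 17.4 and 17.9 CPM in controls. The groups overlapped, since control replicate 2 had the highest value of all. The log2 fold change was 0.07 ± 0.09 (SE; 95% interval -0.12 to 0.26; adjusted p = 0.518, edgeR), and under total-count scaling it was 0.64 and was called (adjusted p = 0.000182, edgeR). The galactosyltransferase gene B4galt3 on the other strand shares 17.5% of the Ppox exon length, and its log2 fold change of 0.14 did not pass (adjusted p = 0.345, edgeR).

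Fech (ENSMUSG00000024588, chromosome 18, 64452914 to 64490251) encodes ferrochelatase, an enzyme with an iron-sulfur cluster that inserts iron into protoporphyrin. It held 119, 119, 125 and 120 CPM in knockdown samples, against 145, 166, 150 and 153 CPM in controls. The knockdown samples were almost alike, with a coefficient of variation of 2.29%, and all lay below the controls. Fech fell by 0.35 ± 0.07 (log2, SE; adjusted p = 0.00139, edgeR). Under total-count scaling the log2 fold change was 0.22 and was called in the other direction (adjusted p = 0.0272, edgeR).

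The other decreases also depended on the scaling. Under total-count scaling the log2 fold changes of Uros, Urod, Cpox and Alas1 were 0.095, 0.021, -0.16 and 0.018, and none of these 4 was called (edgeR). Without any 1 sample, Alas2, Uros, Urod, Cpox and Fech stayed called. Groups did not overlap for the 6 enzymes that fell, and 52.1% of all genes tested had groups that did not overlap, 24.7% lower in knockdown and 27.4% higher. The antisense neighbours Gpr15 of Cpox and 4930500F10Rik of Alas1 held at most 2 counts in any sample.

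**Figure D2:**
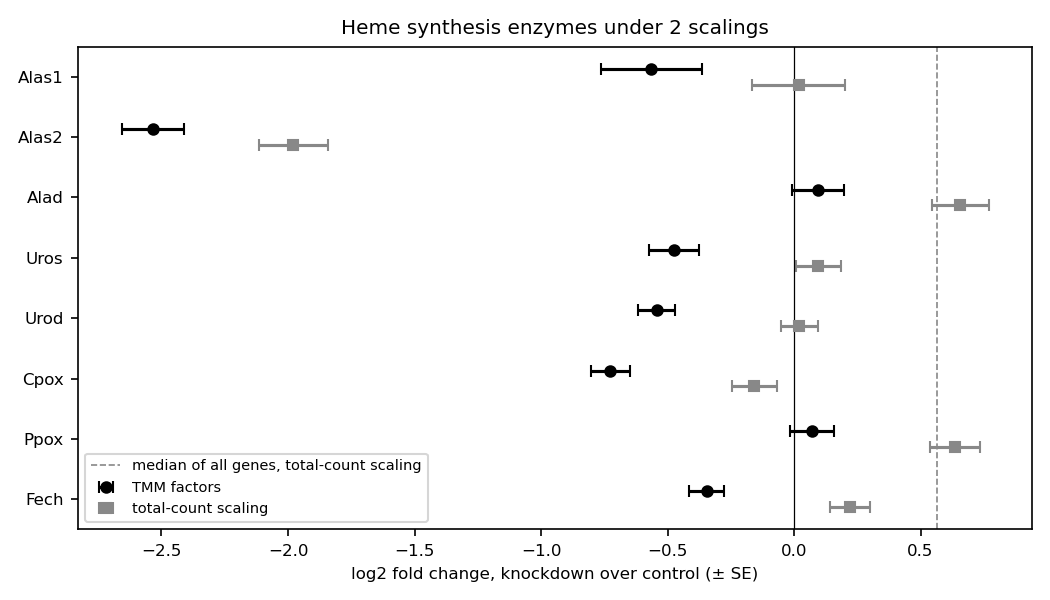
Log2 fold change of knockdown over control for the 8 enzymes in pathway order (points, with bars of ± 1 SE) with TMM factors (black) and with total-count scaling (grey). The dashed line is the median of all genes under total-count scaling, 0.56, and all enzymes shift right by about that amount, while Alas2 stays far to the left at -1.98.

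Levels were compared between enzymes as CPM per kb of annotated exon. In knockdown livers Alas1 averaged 45.2 ± 6.24 and Alad 40.8 ± 5.63 CPM per kb (SD, n = 4 each), and their ranges overlapped. Cpox at 24.2, Urod at 16.8, Fech at 8.72 and Alas2 at 6.41 CPM per kb followed, each apart from the next, and Ppox at 4.30 and Uros at 4.11 CPM per kb overlapped. In control livers Alas1 averaged 66.8 ± 23.2 CPM per kb, above Cpox at 40.1, Alad at 38.2 and Alas2 at 37.1 CPM per kb, where Cpox overlapped Alad and Alad overlapped Alas2. Urod at 24.4, Fech at 11.1, Uros at 5.72 and Ppox at 4.09 CPM per kb came below, each apart from the next. Alas2 thus stood at rank 6 in knockdown and rank 4 in controls. With the gene lengths of the authors' table it stood at rank 8 in knockdown and rank 4 in controls. With those lengths its range overlapped that of Uros in knockdown and that of Urod in controls.

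The summed level of the 8 enzymes was 150 ± 7.39 CPM per kb in knockdown and 227 ± 19.7 CPM per kb in control livers (SD, n = 4 each). Scaled by total counts, the sums were 183 ± 8.25 and 187 ± 14.5 CPM per kb in knockdown and control livers. The share of each enzyme in that sum does not depend on scaling between samples. Alas2 made up 4.25 ± 0.539% of the sum in knockdown livers and 16.5 ± 2.84% in control livers, without overlap. Alad made up 27.1 ± 3.25% in knockdown livers and 16.9 ± 1.87% in control livers, and Ppox 2.86 ± 0.0427% and 1.81 ± 0.286%, in the same order of groups and without overlap. Shares of Alas1, Uros, Urod, Cpox and Fech overlapped between the groups, at 30.0, 2.74, 11.2, 16.1 and 5.80% in knockdown and 28.9, 2.53, 10.8, 17.7 and 4.92% in control livers. The shares of a sample add up to a fixed whole, so a smaller part of Alas2 by itself raises the other shares. The levels of Alad and Ppox were not called with TMM factors and were called higher under total-count scaling. These shares are a description, with no test.

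**Figure D3:**
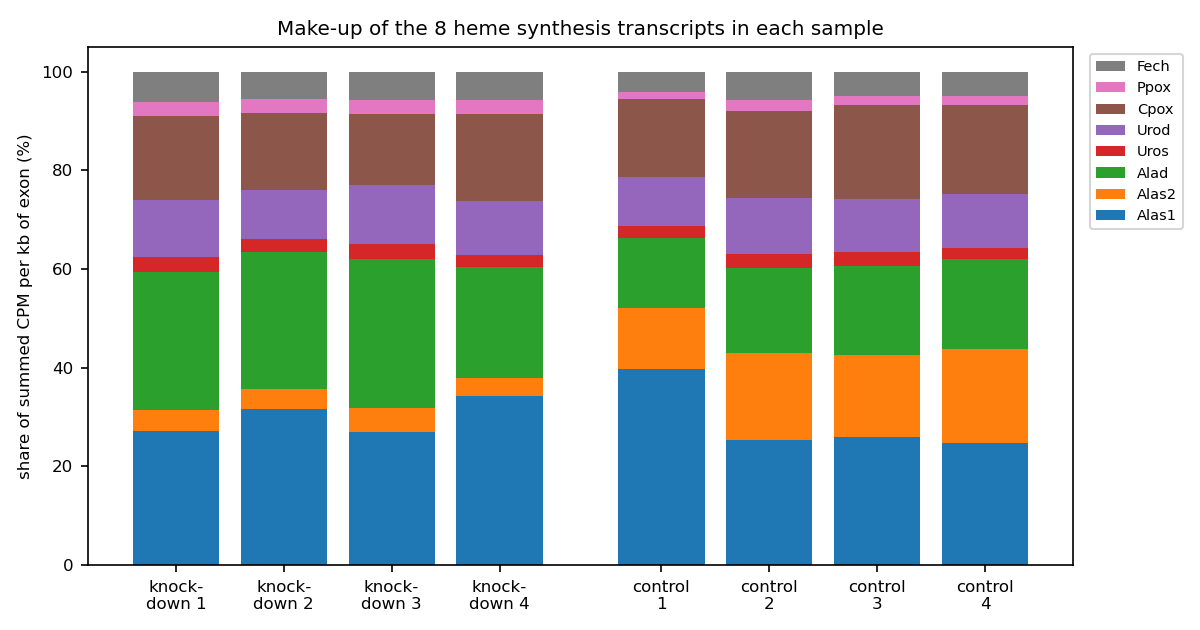
Share of each enzyme in the summed CPM per kb of exon of the 8 enzymes, in percent, for each knockdown sample (left) and each control sample (right). The Alas2 band averages 4.25% in knockdown and 16.5% in controls, and the Alad band averages 27.1% in knockdown and 16.9% in controls.

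Since Alas2 is best known from red cell precursors, red cell transcripts were set beside it. Of 14 erythroid marker genes matched, 6 passed the filter on low counts, of which 2 rose, 0 fell and 4 did not pass (median log2 fold change 0.42), against 5 higher and 0 lower under total-count scaling (median 0.99). Over all genes tested, 29.5% were called higher with TMM factors and 63.9% under total-count scaling. Of these 6 markers 33.3% rose with TMM factors, near the share over all genes. Those that rose were Hba-a1, a globin gene (0.50 ± 0.17, adjusted p = 0.0237), and Slc4a1, the anion exchanger of red cells (1.26 ± 0.47, adjusted p = 0.0374; log2 ± SE, edgeR), and the groups overlapped for both. Without control replicate 2, which had the highest globin level of the controls, 6 of 8 tested rose, and without knockdown replicate 2 the number was 0 of 6. The number tested in these fits was 6 to 8. The number that rose was 1 without knockdown replicate 1 or 3 or control replicate 1 or 3, 2 without control replicate 4 and 3 without knockdown replicate 4. Epb42, Rhag and Hemgn, which did not pass the filter, held at most 14 counts in any sample. The near-identical Hba-a1 and Hba-a2 can share reads, as can Hbb-bs and Hbb-bt, so that these 4 globin genes were also summed.

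Summed globin transcripts held 622, 641, 665 and 502 CPM in knockdown replicates 1 to 4, against 376, 674, 461 and 417 CPM in control replicates 1 to 4. The groups overlapped, with control replicate 2 highest of all and the 4 knockdown samples above the other 3 controls. Per 1000 globin counts there were 23.4, 24.2, 27.7 and 26.1 Alas2 counts in knockdown samples, against 203, 133, 191 and 245 in controls. Alas2 was thus lower in relation to globin in each knockdown sample than in any control. Per 100 Alas1 counts there were 6.20, 5.08, 7.12 and 4.14 Alas2 counts in knockdown samples, against 12.2, 27.3, 25.1 and 29.8 in controls, again without overlap.

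**Figure D4:**
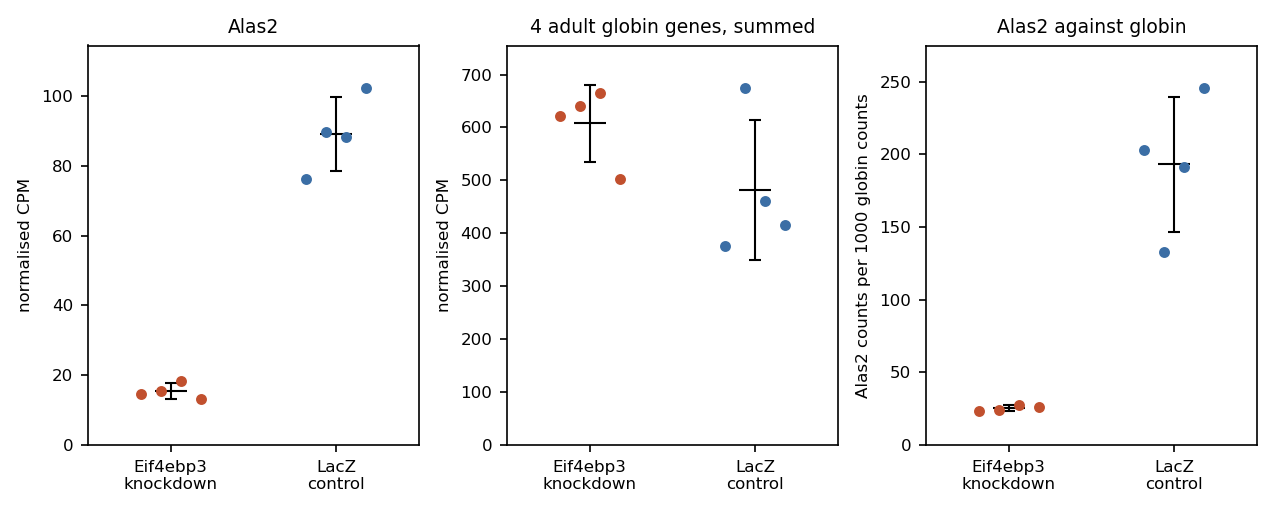
Alas2 in normalised CPM (left), the 4 adult globin genes Hba-a1, Hba-a2, Hbb-bs and Hbb-bt summed in normalised CPM (middle) and Alas2 counts per 1000 globin counts (right), with knockdown in red and control in blue (points: samples; bars: mean ± SD, n = 4 each). The groups overlap for globin, at 502 to 665 and 376 to 674 CPM, and not for the ratio, at 23.4 to 27.7 and 133 to 245.

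Of 9 regulators of erythroid heme genes, 8 were tested, of which 4 fell and 1 rose (median log2 fold change -0.30, or 0.26 under total-count scaling with 3 higher and 1 lower). Beside this list and those that follow, 27.8% of all genes fell and 29.5% rose with TMM factors. Under total-count scaling 7.73% of all genes fell and 63.9% rose. Klf1, an erythroid transcription factor gene, fell to 1.28 ± 0.290 CPM in knockdown, against 3.95 ± 0.639 CPM in controls (SD, n = 4 each; adjusted p = 9.77e-05, edgeR). Ireb2, whose product binds iron-responsive elements such as the one in Alas2 mRNA, and Eif2ak1, the heme-regulated eIF2 kinase, fell, with log2 fold changes of -0.65 ± 0.07 and -0.37 ± 0.08 (SE), and neither was called under total-count scaling. Zfpm1, a partner of GATA factors, also fell, and Nfe2 rose by 1.52, a call lost without control replicate 1. Nfe2 held few counts, 12 to 26 in knockdown samples and 1 to 10 in controls, and the groups overlapped in CPM. Gata1 itself held at most 4 counts in any sample and was not tested.

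Among regulators known to act on the Alas1 gene, of 21 tested, 14 fell and 0 rose (median log2 fold change -0.49), against 6 lower and 4 higher under total-count scaling (median 0.08). The xenobiotic receptor gene Nr1i3 fell to 82.5 ± 15.2 CPM in knockdown, against 247 ± 22.9 CPM in controls, but 74.9% of its exon length is shared with Tomm40l on the other strand. Ppara, the fatty acid receptor of fasting, Cebpa, a hepatocyte factor, and Tef, a clock output factor, fell, with log2 fold changes of -1.10 ± 0.09, -1.15 ± 0.14 and -0.997 ± 0.10 (SE). These 4 calls were kept under total-count scaling and without each sample in turn. Ppargc1a, the coactivator that raises Alas1 in fasted mouse liver, was looked at because of control replicate 1, after its values were seen. It held 7.60, 13.3, 13.95 and 9.38 CPM in knockdown samples, against 55.3, 20.6, 43.2 and 19.2 CPM in controls. Control replicate 1 was highest, as for Alas1, but control replicate 3 also stood above replicates 2 and 4, which was not so for Alas1. Ppargc1a fell by 1.64 ± 0.34 (log2, SE, adjusted p = 0.00171, edgeR), a call kept without each sample in turn and under total-count scaling. A link between Ppargc1a and Alas1 levels was not tested.

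Lists of carriers and of mitochondrial partners held both higher and lower genes. Of 21 genes of porphyrin, heme and precursor transport, 19 were tested, of which 10 fell and 4 rose (median -0.26, or 0.31 under total-count scaling with 10 higher and 1 lower). Abcb10, a mitochondrial transporter needed for heme synthesis in mouse red cell precursors, and the folate and heme carrier gene Slc46a1 fell, with log2 fold changes of -0.86 ± 0.09 and -0.72 ± 0.09 (SE). Abcb10 shares 10.3% of its exon length with a neighbour on the other strand, Gm45890. Slc48a1, which moves heme out of lysosomes, rose by 1.45 ± 0.08, to 146 ± 13.1 CPM in knockdown, against 53.2 ± 2.94 CPM in controls, and the mitochondrial iron importer gene Slc25a37 rose by 0.80 ± 0.11 (log2, SE). Of 16 genes of iron-sulfur assembly and mitochondrial partners, 10 fell and 2 rose (median -0.41, or 0.16 under total-count scaling with 5 higher and 4 lower). Clpx, a chaperone that acts on ALAS proteins, and Sucla2, a succinyl-CoA synthetase subunit gene, fell, with log2 fold changes of -0.815 ± 0.09 and -0.91 ± 0.08 (SE). The ferredoxin system genes Fdxr and Fdx1 fell, with -0.98 ± 0.09 and -0.81 ± 0.11.

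Genes of heme breakdown went the other way. Of the 4 tested, 3 rose and 0 fell (median log2 fold change 0.99), and the same 3 rose under total-count scaling together with Hmox2. Hmox2 stood at -0.18 with TMM factors, which did not pass, and at 0.39 under total-count scaling. With that scaling the median of all genes was 0.56 and 63.9% of them were called higher. Hmox2 shares 40.2% of its exon length with Cdip1 on the other strand. Hmox1, the inducible heme oxygenase, held 109, 96.1, 87.9 and 88.0 CPM in knockdown samples, against 30.5, 36.4, 27.9 and 39.4 CPM in controls, and rose by 1.51 ± 0.12 (log2, SE; adjusted p = 2.81e-06, edgeR). The lowest knockdown sample was above the highest control. The biliverdin reductase genes Blvrb and Blvra rose by 1.04 ± 0.08 and 0.93 ± 0.13. In the same samples 13 of 14 macrophage and monocyte markers rose, and heme oxygenase is abundant in macrophages. The part of these cells in the rise was not tested.

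Transcripts of proteins that carry heme were mostly lower. Of 24 hepatocyte hemoproteins, 18 fell and 1 rose (median -0.97), and 12 fell and 6 rose under total-count scaling (median -0.41). Cyp8b1, of bile acid synthesis, and Cyp2e1, which oxidises ethanol, fell, with log2 fold changes of -3.13 ± 0.22 and -2.18 ± 0.16 (SE), as did Cyp2f2 and Cyp4v3, with -1.81 ± 0.14 and -1.59 ± 0.09. Cyp2f2 and Cyp4v3 share 13.5% and 8.2% of their exon length with a neighbouring gene. The gene that rose was Cyp2a5, by 1.89. Its reads may be shared with close Cyp2a paralogs. Of 6 genes of heme and hemoglobin scavenging, 3 fell and 1 rose. Hrg, a heme-binding plasma protein gene, Lrp1, the hemopexin receptor gene, and Ambp fell, with log2 fold changes of -1.79 ± 0.15, -0.47 ± 0.10 and -0.40 ± 0.11 (SE), and of these Hrg alone was called lower under total-count scaling. Hp, which encodes haptoglobin, rose by 0.28 ± 0.10, a call that held without knockdown replicate 1 and was lost without any other sample. Over all 7 lists around heme synthesis, 98 genes were tested, of which 59 fell and 12 rose. Under total-count scaling 25 of them fell and 34 rose, where 7.73% of all genes were called lower and 63.9% higher. With TMM factors a fall was called for 60.2% of these genes and for 27.8% of all genes, and a rise for 12.2% and 29.5%. The lists were chosen with earlier results of these data known, so this contrast is a description, with no test.

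**Figure D5:**
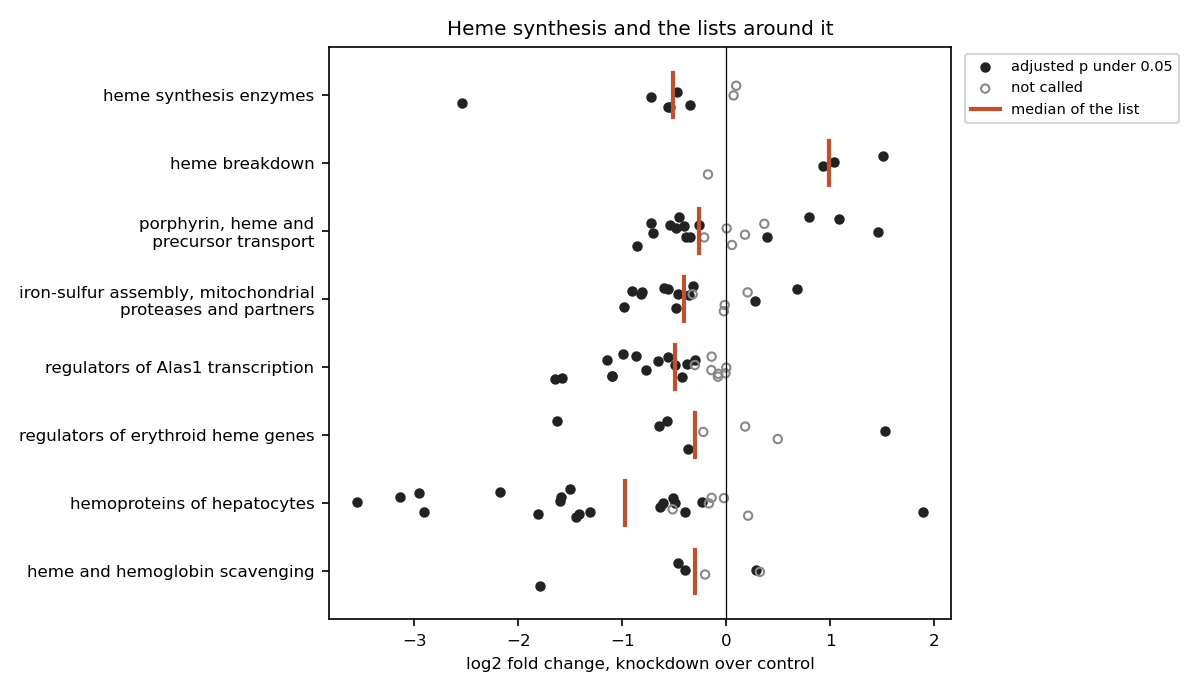
Log2 fold change of knockdown over control, with TMM factors, for the 8 enzymes and the tested genes of 7 lists around them (points: genes, filled where the adjusted p was under 0.05; red line: median of the list; points are spread vertically for legibility). Medians lie between -0.97 and -0.26 except for heme breakdown at 0.99. Under total-count scaling the medians of enzymes, transport, iron-sulfur, both regulator lists and scavenging were above 0 and below the median of all genes, 0.56.

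Markers of several cell types in the samples differed between the groups. Hepatocyte markers were abundant in all samples, with summed levels of 63340 to 81802 CPM in knockdown and 79562 to 108003 CPM in controls, and 12 of 14 fell. Macrophage and monocyte markers summed to 1684 to 1960 CPM in knockdown and 652 to 861 CPM in controls. Of 12 T and NK cell markers 10 rose and 1 fell, of 13 stellate and endothelial markers 6 rose and 2 fell, and of 5 tested neutrophil markers 1 rose and 0 fell. Of all genes tested 29.5% rose and 27.8% fell, and of the neutrophil markers tested 20% rose. Under total-count scaling 9 stellate and endothelial markers were higher and 0 lower, 2 neutrophil markers higher and 0 lower, and 2 hepatocyte markers higher and 10 lower. With that scaling 63.9% of all genes were higher and 7.73% lower. Every marker gene matched had at least 1 count in some sample. The part of these shifts in the levels of the heme synthesis enzymes was not tested.

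The genes whose log2 CPM over the 8 samples was most like that of Alas2 were Hdhd5, Cyb5rl, March8, Ghr and Cyb5d2, with Pearson's r of 0.997, 0.995, 0.995, 0.994 and 0.993 as a measure of likeness. Those most like Alas1 were Olfr539, Syf2, Tti2, Gmeb2 and Cib2, with r of 0.923, 0.922, 0.919, 0.915 and 0.912. Among 12192 genes compared, 1866 (15.3%) had an r above 0.9 with Alas2 and 10 (0.0820%) with Alas1. The groups stand apart for Alas2 and control replicate 1 stands apart for Alas1, and no p is given.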

How the data were processed

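For 8 liver samples the authors deposited an estimated count per gene, also called an expected count, without normalisation. Of these values 10.9% are not whole, and they were rounded. The submitters' processing notes name mm10, SAMtools 1.9, GATK 3.8, Bowtie2 2.2.9 and fastp 0.19.5 without a role for each, and the counting annotation and any use of strand are not stated in what was read here. A second table that the authors deposited gives, per gene, a fold change (a ratio), its log2, a p-value and its adjusted form, and carries the name of DESeq2 without settings. Columns were assigned by the sample code in the labels. Assembled loci without a gene identifier (645, holding 0.676 to 1.08% of counts) were left out.

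Fits used R 4.3.3 and edgeR 4.0.16 (filterByExpr, TMM factors, glmQLFit, glmQLFTest, Benjamini-Hochberg adjustment over all genes tested); limma 3.58.1 and DESeq2 1.42.0 served as alternatives. The procedure was tested on simulated counts in which a small part of the genes changed, as many up as down. Such counts cannot test the choice of scaling. SE is the absolute log2 fold change divided by the square root of F. Positions and exon lengths are from GENCODE mouse release M21, on GRCm38 (mm10). Likeness used log2(CPM + 1) of genes with a mean of at least 1 CPM. The labels do not state whether replicates are separate mice, so each p-value reflects only the spread of these samples, which may be technical. Replicates differed by more than counting error (chi-square per degree of freedom at least 8.94).

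The members and lists were chosen with earlier results of these data known. Named genes were the members, Eif4ebp3, up to 4 called genes per list by smallest p and the 5 genes most like Alas1 or Alas2. Apex2, B4galt3, Gpr15, 4930500F10Rik, Ppargc1a, Cyp2a5, Hmox2, Nfe2, Gata1, Epb42, Rhag and Hemgn were named outside that rule, after their values were seen. Some other genes of the pathway are not reported here. Of the listed symbols 1 (Ahsp) was not matched.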

Additional observations from a re-analysis of the deposited data

Results flagged for a closer look

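In groups of 4 samples, 1 sample stood far from the other 3 in 9 of 132 groups looked at, by Dixon's 95% criterion for the gap to the nearest value; chance alone gives about 1 in 20. Alas1 was at 626 CPM in control replicate 1, against 329 to 351 CPM in the other controls, and without that sample its log2 fold change was -0.29 with an adjusted p of 0.0546 from edgeR. Ppox was at 20.97 CPM in control replicate 2, against 17.4 to 17.9 CPM in the other controls. Among other genes, Olfr539 was at 4.13 CPM in control replicate 1, and Sucla2 at 150 CPM in control replicate 4. Olfr539 was chosen for its likeness to Alas1 over these samples, so its outlier is not independent of that of Alas1. In knockdown replicate 1, Lrp1 was at 928 CPM and Csf3r at 11.3 CPM. Hrg was at 400.3 CPM and Ambp at 1694 CPM in knockdown replicate 3, and C1qc at 160 CPM in knockdown replicate 4.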

How the results depend on the processing

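Alas2 kept its direction and its call in all 20 alternatives, with log2 fold changes of -2.63 to -1.98. Cpox, Uros, Urod and Fech kept direction and call in 18 of 20. The exceptions were a minimum fold of 1.5 and total-count scaling, which gave 0.095 for Uros, 0.021 for Urod, 0.22 for Fech and 0.018 for Alas1. Alas1 was also not called with upper-quartile factors (-0.49, adjusted p = 0.0589, edgeR), without knockdown replicates 1 or 3 or control replicate 1, and with the replicate number as a block (-0.51, adjusted p = 0.0669, edgeR). With that replicate block 5 enzymes were lower and 0 higher, and over all genes 4067 and 4414. Same-numbered samples had deviations that correlated at -0.128, -0.038, 0.058 and 0.148, and 2 of 8 samples correlated best with their own number. With 4 samples per group, these values cannot tell whether samples were paired by number.

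Under total-count scaling 9823 genes were higher and 1189 lower, 3 enzymes higher and 1 lower, and of the lists around heme synthesis 34 genes higher and 25 lower; the cause of this shift of the median was not tested. With a minimum fold of 1.5, 2399 genes were higher and 1322 lower, 1 enzyme lower, and 7 listed genes higher and 25 lower, since that test asks for more than a difference. Leaving out 1 sample gave 5 or 6 lower enzymes. The samples coded C alone (3 per group) gave 6 lower enzymes, with Alas2 at -2.39 and Alas1 at -0.71. Replicate 4 of each group is coded D, and the labels do not say what the letter means. With 1 sample per group the letter D gives no test of its own. Shares changed with the gene length used, by construction. The Alas2 share difference of -12.2 points (knockdown minus control) was -6.16 points without division by length and -8.37 points with the authors' lengths, a choice made after seeing the data. That of Alad was 3.89 points and that of Fech 2.38 points without division by length, and that of Ppox 1.37 points with the authors' lengths. The fewest counts of any enzyme in a sample were 338, for Ppox, and replicates differed by more than counting error.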
